A study of Saccharomyces cerevisiae with 6 samples.

Results

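The PAU, COS, YRF1, AAD and FLO genes of budding yeast (Saccharomyces cerevisiae) belong to multigene families whose copies lie mostly near chromosome ends. Probe sets were taken as members when every gene symbol in the platform annotation was PAU, COS, AAD or FLO followed by digits only, or YRF1 followed by a hyphen and a digit. A probe set that named several relatives was kept as 1 entry. This gave 70 of 9275 probe sets: 22 for PAU, 23 for COS, 2 for YRF1, 6 for AAD and 17 for FLO. Together they named all 56 genes of the R64 gene table whose symbols fit the rule, but only 27 of these genes had a probe set that named no other gene.

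RNA was compared between 3 cultures of the wild-type strain Y117 and 3 cultures of strain Y118, which carries histone H2B K123R. The substitution puts arginine in place of the lysine to which ubiquitin is attached. Cultures of both strains started from early stationary phase in the rich medium YPD at an optical density of 0.3 and were harvested 7 hours later, at 30 degrees, at an optical density of 2. Each culture was measured on 1 single-channel Affymetrix S98 array, and values are probe set signals in linear units. Each genotype is 1 strain, so any other difference between Y117 and Y118 cannot be told apart from the substitution. The labels describe the cultures as triplicates without saying whether their starters were separate, so each p-value reflects only how far these 6 samples spread, which may be technical. Of the H2B genes, HTB1 gave 5836 ± 358 on wild-type and 4560 ± 458 on mutant arrays (mean ± SD, n = 3 per group here and below; limma adjusted p = 0.0739). The HTB2 probe set read 2.53 to 11.3 over the 6 arrays, a background level: control probe sets for mouse genes read 0.922 to 18.3. An array of this kind is not built to show a single substitution.

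As background, chromosome ends of budding yeast are packed into silenced chromatin by the Sir proteins, and H2B ubiquitination is required for the methylation of histone H3 by COMPASS and Dot1, which limits where Sir proteins spread. PAU genes encode small serine-poor seripauperins, cell wall mannoproteins best known for induction when oxygen is low. COS genes encode membrane proteins that help to sort other membrane proteins to the vacuole. AAD genes encode putative aryl-alcohol dehydrogenases, YRF1 genes encode a helicase inside the subtelomeric Y' element, and the flocculins among the FLO genes are cell surface adhesins. The symbols do not always follow kinship: FLO8 encodes a transcription factor that activates flocculin genes, and COS111 is not related to the other COS genes by sequence. In the R64 gene order, 46 of the 54 members listed as protein-coding were among the 10 protein-coding genes nearest a chromosome end. The exceptions were PAU2, PAU5, PAU7, PAU17, PAU23, COS111, FLO5 and FLO11, and the R64 table lists AAD6 and FLO8 as pseudogenes.

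The array of H2B K123R replicate 1 stood apart from the other 5. Its log2 signals correlated at 0.958 and 0.969 with the other mutant arrays, against 0.991 between those and 0.992 to 0.995 among wild-type arrays. The 3' actin probe set exceeded the 5' one by a factor of 1.98 on this array and by 1.40 to 1.59 elsewhere. Leaving it out moved the difference of 32 of the 70 members by over 1.5 times or turned its sign, which it turned for 8. None of these 32 had passed the test. Values without this array are given below for the families and for the members it moved most.

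Over the whole array, 4.22% of probe sets passed as higher in H2B K123R and 2.47% as lower (limma on log2(signal + 16), Benjamini-Hochberg adjusted p under 0.05 over 9275 probe sets). Among the 70 members, 7 rose and 3 (4.29%) fell. The 3 mutant arrays lay wholly above the 3 wild-type arrays for 19 members (27.1%) and wholly below for 8 (11.4%). Over all probe sets, some of which name no gene, these shares were 19.0% and 13.5%. They were 24.9% and 13.5% for probe sets that name 1 protein-coding gene with a coding length under 3000. With a coding length of 3000 or more they were 14.5% and 10.8%. Of these shorter and longer sets, 6% and 2.04% passed as higher, and 2.34% and 0.966% as lower. By family, 5 of 22 PAU probe sets rose and none fell, 1 of 6 AAD probe sets rose, 1 COS probe set rose and 3 fell, and no YRF1 or FLO probe set passed. The 10 calls held without H2B K123R replicate 1. Without replicate 2, 8 held. Without H2B K123R replicate 3 or wild-type replicate 1 only COS12 held, and without wild-type replicate 2 or 3 none did. The calls over the whole array fell in the same fits, from 620 to between 22 and 70.

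**Figure D1:**
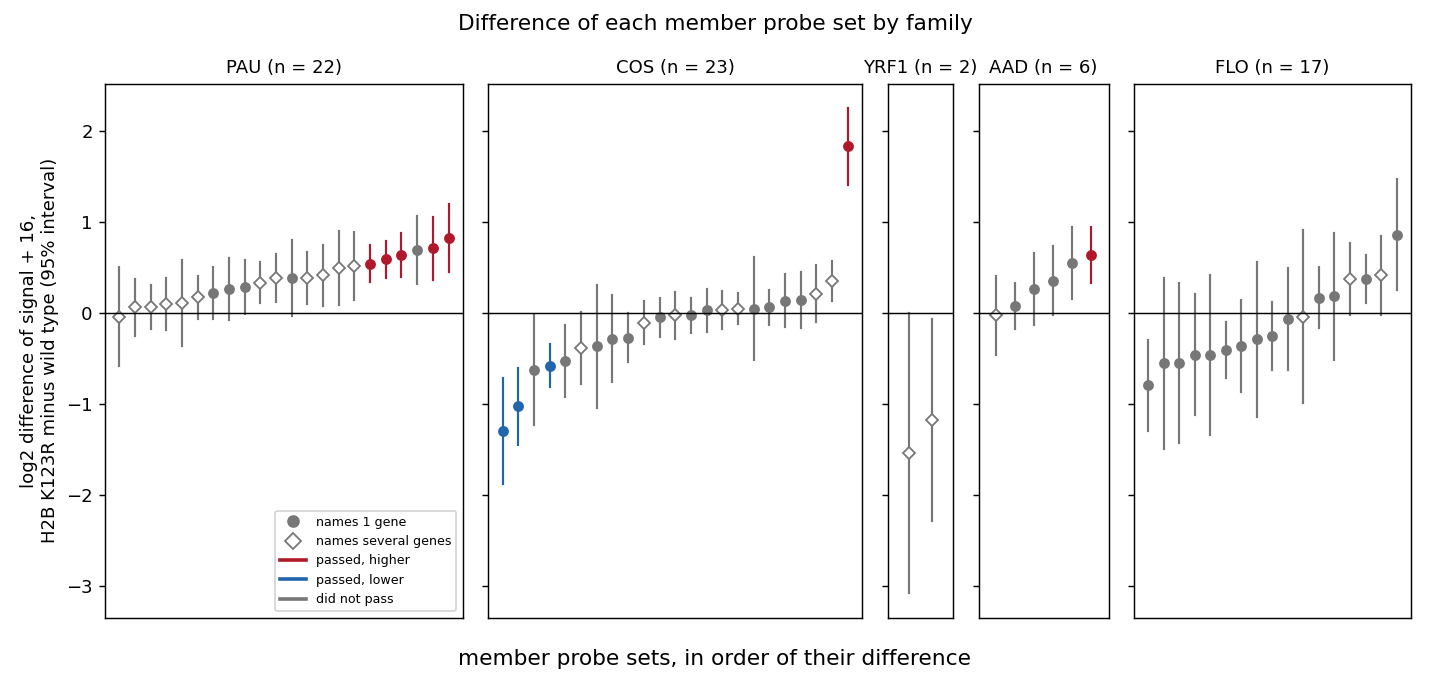
Each point is 1 of the 70 member probe sets, placed by its log2 difference of signal + 16, H2B K123R minus wild type, with its 95% interval from limma (3 arrays per group). Filled circles name 1 gene, open diamonds several, and colour marks probe sets that passed; 21 of 22 PAU differences lie above 0, while COS holds both the largest rise, of 1.83, and the largest fall that passed, of -1.30.

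Most PAU probe sets read higher in H2B K123R, and 5 passed the test. Of 22 probe sets, 21 had a positive difference, with a median log2 difference of 0.38 against 0.02 for all probe sets tested. The median was 0.07 for probe sets that name 1 protein-coding gene with a coding length under 3000. Many of the 22 name some of the same genes, so they are not separate readings. The mutant arrays lay wholly above the wild-type arrays for 12 of the 22 (54.5%, where 19.0% of all probe sets did so), and none lay wholly below. The median PAU signal was 229, 260 and 239 on the wild-type arrays and 348, 290 and 319 on the mutant arrays. The groups do not overlap in this median, and the array of H2B K123R replicate 1 gave its highest value. Without that array the family's median difference was 0.35. In a bulk culture, a change in the share of cells that express a gene and a change in RNA per cell cannot be told apart.

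The 5 PAU probe sets that rose each name a single gene. PAU16, the protein-coding gene nearest an end of its chromosome, gave 233, 245 and 236 in wild type and 369, 367 and 365 in H2B K123R. The mutant values were nearly the same on all arrays and far above the wild-type ones, a rise of 1.51-fold (log2 difference 0.59 ± 0.0849, SE; limma adjusted p = 0.0180). PAU23, the brightest member of the family, read 653, 601 and 608 against 970, 843 and 930, a rise of 1.46-fold (adjusted p = 0.0211). PAU23 is far inside its chromosome, as is PAU17, which read 137, 136 and 160 in wild type and 295, 216 and 299 in H2B K123R. PAU17 had the largest rise of the family, 1.77-fold (adjusted p = 0.0330), and mutant replicate 2 was its lowest mutant array.

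PAU19 and PAU3, both near chromosome ends, completed the group. PAU19 read 176, 196 and 175 in wild type and 294, 278 and 308 in H2B K123R, and rose 1.56-fold (limma adjusted p = 0.0216). PAU3 read 166, 192 and 161 against 350, 252 and 284 and rose 1.64-fold (adjusted p = 0.0397). PAU15 read 79.4, 102 and 88.7 in wild type and 183, 136 and 148 in H2B K123R, with no overlap and a log2 difference of 0.69, close to that of PAU3, but just missed the threshold (adjusted p = 0.050007). The genes named by the probe sets that rose thus lay both beside chromosome ends and, for PAU17 and PAU23, away from them. These probe sets carry the platform's suffix for gene families, and whether each reads only its named gene was not tested.

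The PAU probe sets that name a single gene differed among themselves in size of change. The 5 genes named by the probe sets that rose, and PAU15, have coding lengths of 372 to 375 bases in R64. The median difference of their own probe sets was 0.67, with a range of 0.55 to 0.82. The other 4 PAU genes with a probe set of their own, PAU4, PAU7, PAU10 and PAU13, have shorter coding lengths, of 168 to 363 bases. Their differences were 0.22 to 0.38 with a median of 0.28, and none passed. PAU4 read 474, 462 and 343 in wild type and 556, 501 and 479 in H2B K123R (limma adjusted p = 0.301), so that its lowest mutant array was only just above its highest wild-type array. This split by length was made after the values were seen and the difference between its sides was not tested.

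None of the 12 PAU probe sets that name several genes passed, and their median difference was 0.25. The largest among them was that of the PAU2 and PAU9 probe set, which read 133, 159 and 170 in wild type and 243, 254 and 188 in H2B K123R (log2 difference 0.52, limma adjusted p = 0.1002). The PAU5 and PAU7 probe set read 328, 437 and 318 against 420, 548 and 581, with the mutant replicate 1 below the highest wild-type array. It passed without that array (log2 difference 0.64, adjusted p = 0.0451; 0.50 and 0.135 with it). The 3 probe sets that name PAU6, PAU18 and PAU20, with or without PAU1 and PAU14, had differences of 0.07 to 0.11 and overlapping groups, and 1 of those that name PAU13 and its relatives had one of 0.06. The probe set of PAU19, PAU21 and PAU22 was dim, at 10.8 to 31.3 over the 6 arrays, and was the only PAU probe set with a negative difference (-0.04). PAU sequences are so alike that a probe set named for 1 gene may also read its relatives: all but 1 of the PAU probe sets carry the platform's suffix for gene families, and cross-hybridisation was not tested.

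**Figure D2:**
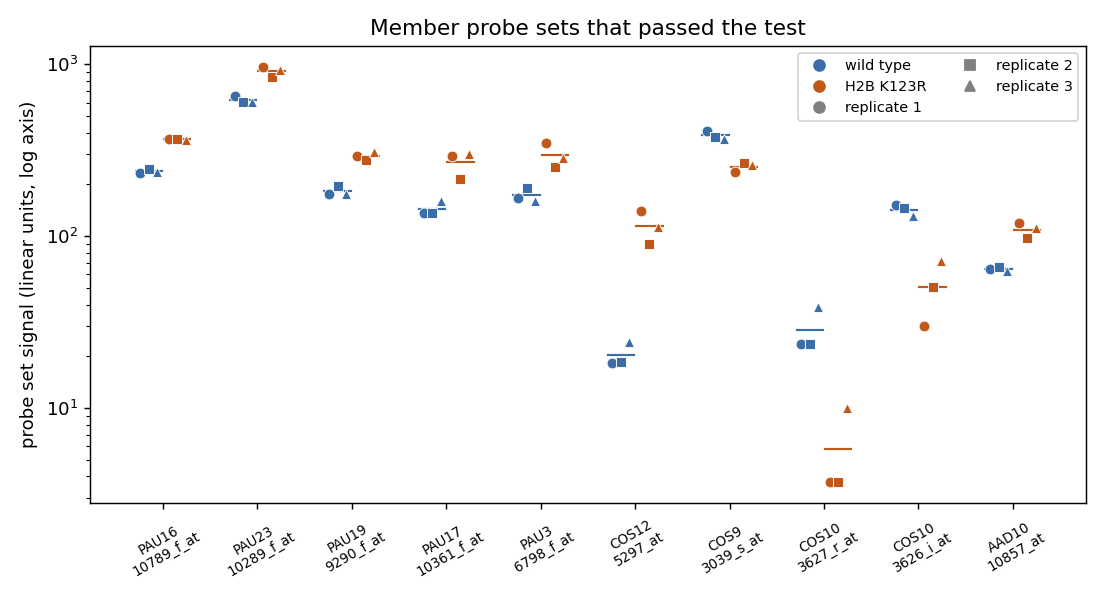
Signal of the 10 member probe sets that passed the test on each array, in linear units on a log axis; blue is wild type, orange H2B K123R, the symbol gives the replicate and the line the mean of 3 arrays. The groups do not overlap for any of the 10, and COS12 goes from a mean of 20.3 to 115.

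Of the 6 AAD probe sets, 5 had positive differences and 1, that of AAD10, passed. AAD10 read 64.5, 65.9 and 62.3 in wild type and 119, 97.1 and 112 in H2B K123R. The groups were well separated, with a rise of 1.56-fold (log2 difference 0.64 ± 0.127, SE; limma adjusted p = 0.0367). AAD4, one of the AAD genes known to respond to oxidative stress through the activator Yap1, has 2 probe sets. The brighter carries the platform's suffix for probes shared between similar transcripts, and whether it also reads relatives of AAD4 was not tested. It read 681, 669 and 618 in wild type and 1258, 801 and 902 in H2B K123R. All mutant arrays were above all wild-type arrays and replicate 1 was the highest, but the difference of 0.55 did not pass (adjusted p = 0.101). Without that array the difference was smaller, at 0.37, and passed (adjusted p = 0.0469). The dimmer probe set of AAD4 read 48.9 ± 5.06 and 62.4 ± 14.2 and did not pass, with a difference of 0.26, or 0.12 without that array.

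AAD6, which is a pseudogene in R64, gave 17.8 ± 6.18 on wild-type and 26.9 ± 3.25 on mutant arrays, with overlapping groups near the level of the mouse controls. AAD14 read 246, 226 and 229 against 261, 223 and 261, which is no separation (log2 difference 0.08, 95% interval -0.18 to 0.33). The probe set shared by AAD3 and AAD15 read 50.3 ± 13.4 and 48.7 ± 8.06. The median over the 6 AAD probe sets was 0.31, and 0.24 without H2B K123R replicate 1.

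COS genes moved in both directions, and COS12 had the largest change of all 70 members. COS12 read 18.3, 18.5 and 24.1 in wild type, just above the mouse controls, and 140, 90.0 and 114 in H2B K123R. Even the lowest mutant array was far above every wild-type array. The log2 difference was 1.83 ± 0.177 (SE; limma adjusted p = 0.00638), or 1.695 without H2B K123R replicate 1. Because the wild-type signal was low, its size depends on the number added before taking logs, and was 2.43 after adding 1 and 1.07 after adding 64. COS12 is the protein-coding gene nearest its chromosome end, and the next gene inward, YGL262W, also rose, from 4.87 ± 1.71 to 25.3 ± 6.86 (adjusted p = 0.0193).

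COS10 was lower on all 4 of its probe sets, and 2 of them passed, 1 of these with its mutant arrays at background. Its brightest probe set is of a type with fewer unique probes than the platform's design requires. It read 151, 146 and 131 in wild type and 29.8, 50.8 and 71.8 in H2B K123R, a fall of 1.30 on the log2 scale (limma adjusted p = 0.0328). Replicate 1 was the lowest mutant array, and the fall was -1.05 without it (adjusted p = 0.0155). A dim probe set, of a type that breaks the platform's design rules, read 23.4, 23.4 and 38.5 against 3.70, 3.72 and 9.96, the latter all within the range of the mouse controls. It passed too (adjusted p = 0.0267), but the size of its fall has only a bound and is not given. The other 2 probe sets of COS10 read 51.6 ± 5.06 and 29.6 ± 15.5, and 13.6 ± 2.75 and 4.83 ± 4.17. Neither passed, although in both every mutant array was below every wild-type array, by a narrow margin in the first. AIF1, the neighbour of COS10 towards the chromosome's centre, read 303 and 228 and did not pass (adjusted p = 0.0957).

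COS9 has 3 probe sets that disagree. The first read 412, 379 and 368 in wild type and 235, 268 and 259 in H2B K123R, a fall of 0.58 on the log2 scale (limma adjusted p = 0.0253) with no overlap. It carries the platform's suffix for probes shared between similar transcripts, which the other COS9 probe sets lack, and cross-hybridisation was not tested. The next read 261, 245 and 236 against 238, 142 and 238, so that 2 of its mutant arrays were within the wild-type range and it did not pass (adjusted p = 0.435). The third was at background, between 8.37 and 11.6 on all arrays. On the inner side of COS9, the next 2 genes SRY1, which encodes a 3-hydroxyaspartate dehydratase, and JEN1, the lactate permease, went the opposite way: SRY1 rose from 127 ± 26.4 to 320 ± 14.0 (adjusted p = 0.0130), and JEN1 rose from 3.64 ± 1.98 to 39.3 ± 11.4 (adjusted p = 0.0117).

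None of the bright COS probe sets other than that of COS9 passed. Over the 14 probe sets that name only genes from COS1 to COS8, none passed, the median difference was 0.04 and the range was -0.38 to 0.35. The brightest, which names COS1, COS2, COS3 and COS4, read 1869, 1760 and 1899 in wild type and 2639, 2165 and 2298 in H2B K123R. Its groups did not overlap, but its difference of 0.35 did not pass (limma adjusted p = 0.0705), and 3 other probe sets that name some of these 4 genes without COS1 gave 0.05, 0.14 and 0.21. Of these, that of COS4 went from 0.14 to 0.02 without H2B K123R replicate 1. COS6 read 2068, 1057 and 1753 in the mutant, around a wild-type range of 1396 to 1649, and its difference went from 0.05 to -0.15 without replicate 1. The 3 probe sets of COS8 had differences of -0.02 to 0.14, and those of COS5 and COS7, alone or together, were all negative, at -0.02 to -0.38. The lowest of them, which names COS5 and COS7, was -0.21 without replicate 1, and the dim one of COS7 alone, which read 1.37 on that array, went from -0.37 to -0.02. COS111 was at background on every array, between 3.03 and 7.07. For the whole family the median difference was -0.02, and 10 differences were positive and 13 negative.

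Both YRF1 probe sets had lower means in H2B K123R, with overlapping groups, and neither passed. The probe set that names all 8 YRF1 genes read 318, 651 and 548 in wild type and 54.9, 434 and 147 in H2B K123R (log2 difference -1.53 ± 0.646, SE; limma adjusted p = 0.202). The probe set that names 7 of them read 121, 303 and 224 against 46.6, 166 and 65.6 (-1.17 ± 0.464; adjusted p = 0.184). In both, mutant replicate 2 was above the lowest wild-type array and mutant replicate 1 was the lowest of the 6. Without replicate 1 the differences were -0.89 and -0.85, with adjusted p of 0.284 and 0.282.

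In each group the YRF1 signal was highest on replicate 2 and lowest on replicate 1, and the ribosomal RNA controls had the same order. A control probe set for 25S ribosomal RNA read 472, 4376 and 955 on the wild-type arrays and 61.1, 11359 and 3335 on the mutant arrays. Between the groups the orders differed. Mutant replicate 2 had the highest 25S value of all arrays, yet both YRF1 probe sets read lower on it than on wild-type replicates 2 and 3. The actin ratio was highest, at 1.98, on the array where both YRF1 probe sets were lowest. It was lowest, at 1.40, on mutant replicate 3, where the YRF1 probe sets read 147 and 65.6, below every wild-type array. The part of either control in the YRF1 values was not tested.

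A further 22 probe sets name YRF1 genes together with other genes of the Y' element and are not members. Of these, 20 had negative differences, with a median of -1.14, and none passed, the smallest adjusted p being 0.134. Their signals spanned a wide range. On 5 of them every array read between 2145 and 3766, and these had differences of -0.10 to 0.13 and overlapping groups. On the other 17 the median difference was -1.32, and the array of H2B K123R replicate 1 was the lowest of the 6 in 82.4%, against 21.9% of all probe sets tested. Without that array the median was -0.60 on these 17, of which 1 then passed, and -0.56 on all 22. The median signal of the 17 was 90.9, 292 and 205 on the wild-type arrays and 21.0, 141 and 41.5 on the mutant arrays, so that mutant replicate 3 was low as well. The cut at 2000 on every array was chosen after the values were seen, and the next probe sets below it reached 1993 to 2033 in wild type; the wild-type arrays alone gave 5 above it. Probe sets named for the same repeated element thus gave unlike readings on that array.

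**Figure D3:**
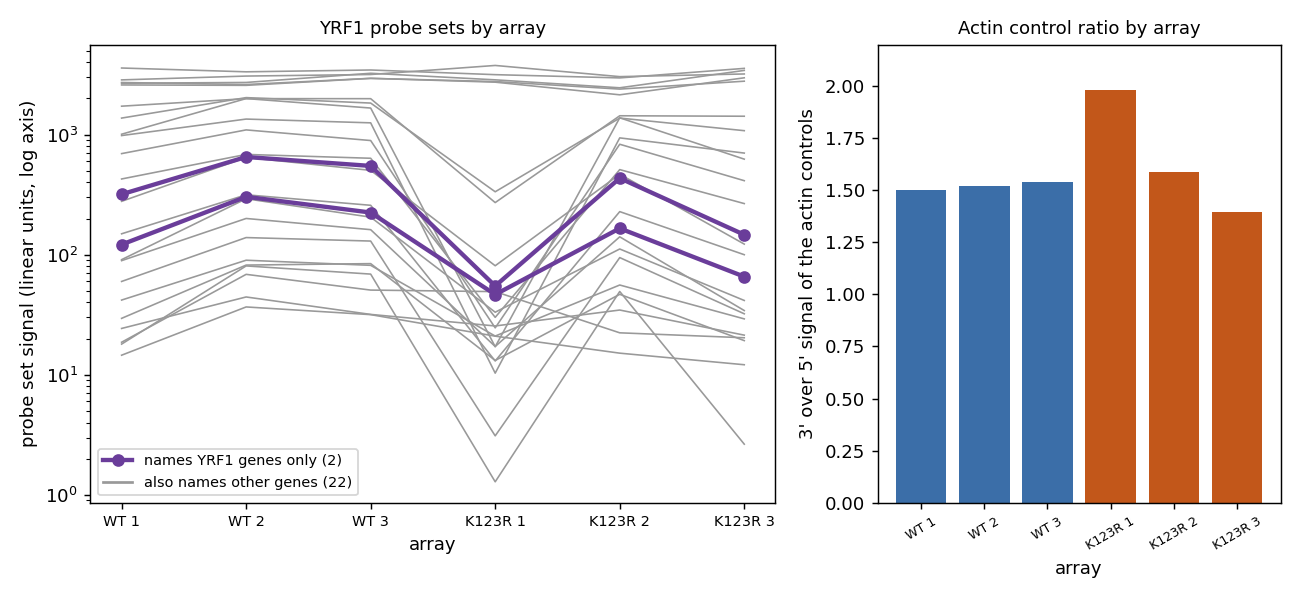
Left, signal on each array, in linear units on a log axis, of the 2 probe sets that name YRF1 genes only (purple) and of the 22 that also name other genes (grey), a line joining the values of 1 probe set. Right, the actin control, 3' over 5' probe set, on the same arrays, a ratio that is 1.98 on H2B K123R replicate 1, the array on which most of the lines dip, and 1.40 to 1.59 on the others.

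No FLO probe set passed, and the 17 differences ran from -0.79 to 0.86. FLO1, a dominant flocculin gene, had the largest positive difference, on the probe set that names it alone: 37.3, 77.4 and 36.2 in wild type and 85.0, 113 and 105 in H2B K123R. That probe set is of the type with fewer unique probes than the platform's design requires. The groups were apart, but the wild-type replicate 2 came close to the mutant arrays (log2 difference 0.86 ± 0.254, SE; limma adjusted p = 0.0968). FLO11, the adhesin of invasive and filamentous growth, read 154, 168 and 179 against 230, 225 and 206, again without overlap (0.37; adjusted p = 0.1002). The probe set of FLO1, FLO5 and FLO9 read 226, 155 and 204 against 320, 230 and 244, and that of FLO5 and FLO9 read 469, 336 and 367 against 479, 444 and 606. Their differences were 0.42 and 0.37, and neither passed.

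FLO8 has 2 probe sets with opposite signs. The brighter read 159, 111 and 152 in wild type and 215, 97.4 and 194 in H2B K123R, with wide overlap. The dimmer read 18.9, 31.9 and 37.4 against 4.89, 11.1 and 14.6, with the mutant arrays at the level of the mouse controls (limma adjusted p = 0.0754). The probe sets that name FLO5 alone were dim as well, with means of 21.8, 45.2 and 25.0 in wild type. Their differences were -0.41, -0.55 and -0.46, and -0.36, -0.39 and -0.02 without H2B K123R replicate 1. The last of them read 0.333 on that array against 17.9 and 32.2 on the other mutant arrays.

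FLO10, a flocculin gene that is normally silent, had 7 probe sets, all dim, with wild-type means of 17.8 to 75.4. Of their differences 6 were negative, and on 5 of the 7 the array of H2B K123R replicate 1 was the lowest of the 6. The FLO10 probe set with the highest signal read 77.7, 81.6 and 66.9 in wild type and 25.3, 91.5 and 77.9 in H2B K123R. Its difference of -0.29 was 0.14 without replicate 1. The probe set of FLO1 and FLO5 likewise read 99.4, 137 and 107 against 49.4, 177 and 142, and went from -0.04 to 0.43 without that array. For the family as a whole the median difference was -0.25 on all arrays and -0.02 without replicate 1.

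The 2 families with the longest genes were those in which H2B K123R replicate 1 departed downward from its group. The log2 signal of replicate 1 minus the mean of replicates 2 and 3 had a median of -1.45 for YRF1 and -0.39 for FLO, against 0.12 for PAU, 0.04 for COS, 0.24 for AAD and 0.10 for all probe sets. Coding lengths in R64 are 4149 to 5728 for YRF1, 2400 to 4614 for FLO, 1125 to 2775 for COS, 129 to 495 for PAU and 432 to 1131 for AAD. Among all probe sets that name 1 protein-coding gene, replicate 1 was the lowest of the 6 arrays for 42.4% of the 932 with a coding length of 3000 or more, and for 16.9% of the 5387 with a shorter one. The part of gene length and of the actin ratio in these values was not tested.

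**Figure D4:**
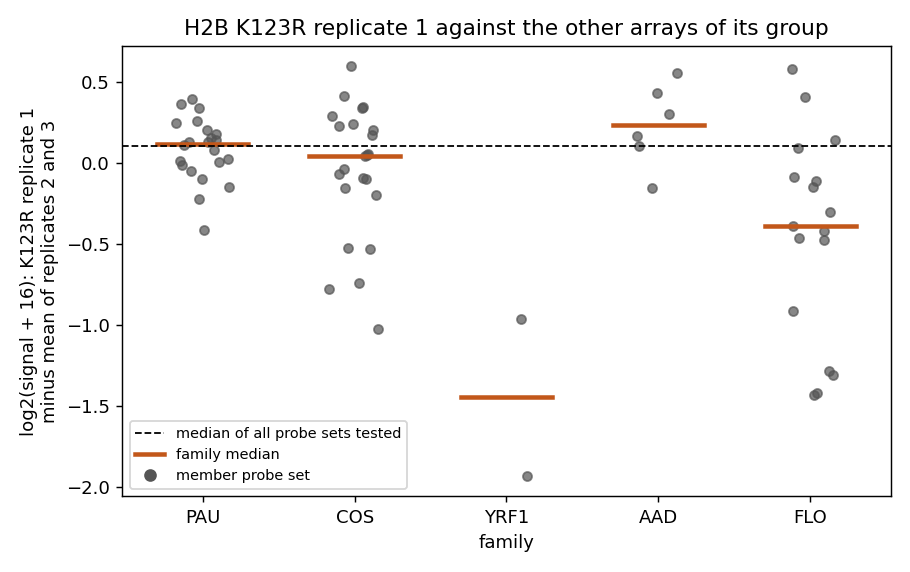
For each member probe set, log2(signal + 16) on H2B K123R replicate 1 minus the mean of replicates 2 and 3, by family, with the family median in orange and the median of all 9275 probe sets, 0.10, as a dashed line. YRF1 and FLO lie farthest below that line, at medians of -1.45 and -0.39, and the COS median of 0.04 is just below it.

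Genes that share a role or a place with these families gave the following counts, with 1 probe set per gene and medians set against 0.08 over all 5656 genes, of which 343 rose and 165 fell. Of 14 other anaerobic cell wall and hypoxic genes, 2 rose and none fell, with a median of -0.03. They were DAN4, a mannoprotein gene of the anaerobic cell wall (130 ± 15.6 to 209 ± 11.2, limma adjusted p = 0.0365), and CYC7, a cytochrome c isoform gene (33.9 ± 5.17 to 82.9 ± 12.8, adjusted p = 0.0214). TIR1, TIR2, TIR3 and TIR4, whose products are also anaerobic mannoproteins, had differences of -0.36, -0.08, 0.21 and -0.10 and did not pass. For each of these TIR genes, H2B K123R replicate 1 was the lowest array, so that array pulled the differences down. TIR1 read 3931 on it against 8011 and 8069 on the other mutant arrays, and TIR4 read 204 against 453 and 513. None of 7 hypoxic and sterol regulators passed; UPC2, an activator of anaerobic genes, read 54.1 and 31.8 (adjusted p = 0.0654).

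Of 14 genes for Yap1, its partner Skn7 and Yap1 targets, 3 rose and 1 fell, with a median of 0.19. OYE3, an NADPH dehydrogenase gene, rose from 50.3 ± 3.91 to 101 ± 4.37 (limma adjusted p = 0.0191), GTT2, a glutathione transferase gene, from 103 to 175, and CCP1, cytochrome c peroxidase, from 616 to 911. SKN7 fell from 514 to 378 (adjusted p = 0.0348), and YAP1 itself read 122 and 181 (adjusted p = 0.101). Of 16 genes for ESCRT complexes and multivesicular body sorting, the route that COS proteins serve, MVB12 fell from 204 to 121 (adjusted p = 0.0367) and none rose.

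None of 15 telomeric silencing genes passed, with a median of -0.14. SIR3 read 303 and 397 (limma adjusted p = 0.107), SIR2 289 and 260, SIR4 47.6 and 61.1, and SIR1 52.2 and 66.0. None of 12 telomerase and telomere maintenance genes and none of 15 flocculin regulators passed, with medians of 0.11 and -0.23. MSS11, which acts with Flo8 at flocculin genes, read 84.4 and 54.9 (adjusted p = 0.0874).

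Genes of other families found near chromosome ends were measured as well. Of 18 measured, none rose and 2 fell: IMD2, an IMP dehydrogenase gene (4713 ± 536 to 2822 ± 96.1, limma adjusted p = 0.0148), and ARR1, an arsenic resistance regulator gene (244 to 146, adjusted p = 0.0434). Of all 182 measured genes that are among the 10 nearest a chromosome end and are not members, 16 rose and 6 fell, with a median of 0.11. Besides IMD2, the smallest p-values among them were those of PAD1, a gene of phenylacrylic acid decarboxylation, which fell from 625 to 305, and of JEN1 and SRY1, whose values are given above.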

How the data were processed

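Each deposited file holds 1 linear intensity per probe set. Median signals were 131 to 140 on all arrays. The 99th percentile was 8651 on H2B K123R replicate 1 and 10241 to 11379 on the other arrays. Neither the software nor the build behind the array design is given in the sources used here. The 60 control probe sets were set aside and 9275 were tested as log2(signal + 16) with limma 3.58.1 in R 4.3.3 (lmFit and eBayes with trend, two-sided tests, p-values adjusted by Benjamini-Hochberg over all of them). Of these, 6504 named 1 gene, 328 several and 2443 none in the platform annotation. Gene order and coding lengths came from the R64 gene table. The number of arrays limits the precision. For lists, a gene was represented by its probe set with the highest mean. Named members were those that passed, the 3 with the smallest p and the 2 brightest in each family, all of YRF1 and FLO, and up to 4 that passed per list; members and genes beyond these were picked with their values in view. The members and lists were chosen with earlier results of these data known. The fit was tested on simulated data, with 100 of 9275 probe sets changed at each of 2 sizes. It called 19% of the 1.5-fold and 69% of the 2-fold changes, and 3.3% of its calls were false. The simulated noise was normal, independent between probe sets and of equal size on all arrays. These shares therefore do not cover an array that stands apart, as H2B K123R replicate 1 does, or deviations shared between probe sets. Alternatives were other pseudocounts, quantile and cyclic loess normalization, a filter on dim probe sets, a replicate block, array weights, subsets by probe set type and leaving out each array. No sequence was used here.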

Additional observations from a re-analysis of the deposited data

How the results depend on the processing

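No call of the 10 members changed sign in any alternative. The number of calls over the whole array was 22 to 1023 when 1 array was left out, 307 with a replicate block and 2885 with array weights, which gave H2B K123R replicate 3 a weight of 4.52 and replicate 1 one of 0.181; the cause was not tested. Left-out arrays gave 0 to 7 calls for PAU (5 on all arrays), 0 to 4 for COS (4), 0 to 2 for AAD (1) and 0 for YRF1 and FLO. Array weights gave 12 PAU, 9 COS, 2 YRF1, 2 AAD and 6 FLO calls. Same-numbered wild-type and mutant arrays deviated from their group means with correlations of 0.318, 0.382 and 0.0527, so the numbers were not taken as pairs, although every array correlated best with its own number. With the replicate block 3 PAU, 2 COS, 1 YRF1, 0 AAD and 1 FLO probe sets passed. Only 1 COS and 0 AAD probe sets passed above the median level, and 1 COS probe set among plain suffixes; both leave fewer probe sets. The PAU median was 0.27 after cyclic loess and 0.57 over probe sets naming 1 gene. The COS median was -0.14 after cyclic loess, 0.0392 above the median level and -0.16 over probe sets naming 1 gene. The AAD median was 0.16 with a pseudocount of 64 and the FLO median 0.37 above the median level. Left-out arrays gave medians of 0.32 to 0.44 for PAU, -0.06 to 0.02 for COS, -1.92 to -0.87 for YRF1, 0.22 to 0.37 for AAD and -0.41 to -0.02 for FLO. The companion lists held 28 calls, 43 after cyclic loess and among probe sets naming 1 gene, 11 with the block, 113 with array weights and 0 to 45 with an array left out. Among the members named by the rule, signs turned for these, none of which had passed: FLO5 (0.14), FLO10 (0.0461) and COS4 (-0.0655) with array weights, AAD14 (-0.0300) after cyclic loess, and the FLO1 and FLO5 probe set with array weights (0.27) and a pseudocount of 64 (0.00124). Left-out arrays gave -0.35 to 0.43 for that probe set, -0.55 to 0.14 and -0.24 to 0.16 for 2 FLO10 probe sets, and -0.00765 to 0.50 for FLO8. Outside the rule, the differences of COS6 (-0.15), of 3 PAU probe sets that name several genes (-0.02, -0.02 and 0.01) and of the COS1, COS4 and COS6 probe set (-0.03) turned without H2B K123R replicate 1. Probe sets near the mouse controls have little precision.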
